A study of Mus musculus with 96 samples.

Results

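Livers labelled as lacking RBBP5 in hepatocytes (LKO) were compared with control livers (Flox) over the first 4 h of a circadian time course. The series holds 96 poly(A)-selected RNA-seq libraries, 48 of LKO livers and 48 of Flox livers, taken every 2 h for 48 h. The comparison described here takes the 12 libraries of circadian times CT0, CT2 and CT4: 6 of LKO livers and 6 of Flox livers, 2 per genotype at each time, called A and B. LKO mice were male C57BL/6J mice homozygous for a floxed Rbbp5 allele and heterozygous for Alb-Cre, a Cre recombinase driven by the albumin promoter, which is active in hepatocytes. Flox mice, titled WT in the labels, were littermates homozygous for the same floxed allele without Cre. All mice were 3 to 4 months old, were kept in 12 h light and 12 h darkness for 2 weeks with food at will, and were moved to constant darkness 24 h before the first collection. The deletion is therefore confined to cells in which the albumin promoter was or is active, so other liver cells keep the gene, and every control mouse carries the floxed allele. Nothing in the labels says which exons are floxed or that libraries of the same letter share a litter or day, so p-values measure the spread between these libraries.

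RBBP5 is a subunit of the WRAD core, with WDR5, ASH2L and DPY30, which the 6 members of the KMT2 family of histone H3 lysine 4 methyltransferases need for full activity. H3K4 trimethylation marks active promoters and H3K4 monomethylation marks enhancers. In liver, many metabolic and secretory genes follow the clock, in which CLOCK and ARNTL (BMAL1) activate the Per, Cry and Nr1d1 genes, and the encoded PER and CRY proteins repress CLOCK and ARNTL. At the times studied here, which follow the start of the subjective day, Arntl transcripts are normally near their peak and Nr1d1 and Dbp are on the rise in mouse liver.

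Values are the deposited FPKM (fragments of a gene scaled by its transcript length and by the total of its library), and differences are LKO minus Flox on the scale of log2(FPKM + 1), fitted with limma with time point as a factor and adjusted over all 9745 entries that averaged at least 1 FPKM. The sum of FPKM per library was 313376 to 434269 in LKO livers and 328036 to 353972 in Flox livers. The files give no read counts, so absolute depth is unknown. The smallest steps between low values put relative depth between 0.820 (LKO CT4B) and 1.33 (LKO CT2A), although the estimates of only 66.7% of library pairs agreed within 0.03 on the log2 scale.

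The libraries labelled LKO did not form 1 group. On the first principal component, which held 62.9% of the variance, LKO CT0A, CT2A, CT2B and CT4A lay at -66.0, -50.7, -46.6 and -35.4. The other LKO libraries, CT0B and CT4B, lay at 21.0 and 14.9, and the 6 Flox libraries at 23.9 to 31.2. The median SD of a gene over the 6 libraries of a genotype was 0.36 in LKO livers and 0.15 in Flox livers on the log2 scale. Most list medians and the leading genes are therefore also given without those 4 libraries. That comparison, chosen after seeing the data, leaves 1 LKO library at CT0, none at CT2 and 1 at CT4. In that comparison 279 entries were higher and 730 lower in LKO at an unadjusted p under 0.05. The lowest adjusted p was 0.393 (limma), so no entry passed. The 4 libraries were picked for their distance from Flox on these same values, so smaller differences without them follow from the choice. With 2 LKO libraries left, a loss of calls cannot be told apart from the smaller number of libraries. Of the 3875 called entries 3656 (94.3%) kept their sign, at a median of 0.27 of their size, but the 2 libraries left were also part of those calls.

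The ribosomal RNA precursor Rn45s, which poly(A) selection should largely remove, moved with this split. It was listed at 15894, 11755, 4415 and 4219 FPKM in those 4 LKO libraries and at 447 and 669 FPKM in LKO CT0B and CT4B, against 817 to 1483 (median 1229.8) FPKM in Flox livers. The LKO values thus lay on both sides of the Flox range, and the difference of 1.48 on the log2 scale gave an exact two-sided permutation p of 0.157 within time points (adjusted p = 0.291 over 24 library measures, where the smallest attainable p was 0.00926). In limma the adjusted p of Rn45s was 0.167, and without the 4 libraries its difference was -1.15. Albumin transcripts (Alb) spanned 5465 to 15395 FPKM in LKO livers and 12914 to 15159 FPKM in Flox livers, and the 20 most abundant entries held 29.9 to 41.3% of the summed FPKM in LKO livers and 27.5 to 32.4% in Flox livers. The part of these library features in the gene differences was not tested.

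**Figure D1:**
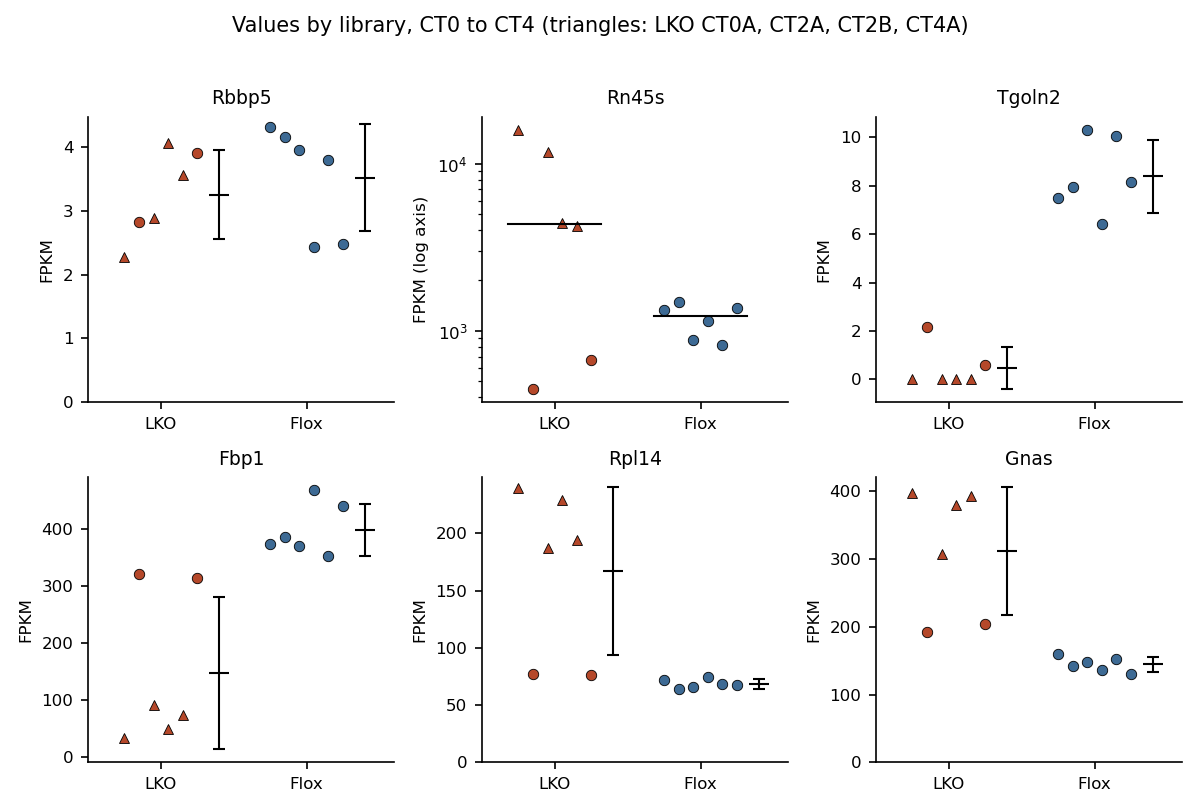
FPKM per library of Rbbp5, Rn45s (log axis), Tgoln2, Fbp1, Rpl14 and Gnas at CT0, CT2 and CT4, LKO left and Flox right, 1 point per library, with triangles for LKO CT0A, CT2A, CT2B and CT4A. Rbbp5 overlaps almost fully, and in Fbp1, Rpl14 and Gnas the other LKO libraries, CT0B and CT4B, lie next to the Flox libraries (321 and 315 FPKM of Fbp1, against 353 to 468 FPKM in Flox livers).

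Rbbp5 itself, on chr1:132477365-132505659 (mm10), did not separate the genotypes at these times. Its level was 2.28 to 4.06 (median 3.23) FPKM in LKO livers, against 2.43 to 4.32 (median 3.88) FPKM in Flox livers. The ranges overlapped almost fully, and the means were 3.25 ± 0.701 FPKM in LKO livers and 3.52 ± 0.846 FPKM in Flox livers (SD, n = 6 each; log2 difference -0.08, SE 0.16, adjusted p = 0.698, limma). The difference was 0.12 under median-ratio scaling and 0.16 under quantile normalisation, so its sign was not stable. The other times form 7 windows with 6 libraries per genotype each, and in 6 of them the LKO mean was below the Flox mean, for example at CT24 to CT28 (2.24 ± 0.30 FPKM in LKO livers and 3.46 ± 0.52 FPKM in Flox livers). At CT42 to CT46 it was the higher one, at 3.79 ± 0.40 FPKM in LKO livers and 2.71 ± 0.72 FPKM in Flox livers. The ranges did not overlap at CT6 to CT10, CT24 to CT28, CT30 to CT34 and CT36 to CT40. The highest LKO values there were 3.24, 2.70, 1.86 and 2.26 FPKM, and the lowest Flox values 3.27, 2.88, 2.35 and 2.36 FPKM. At CT12 to CT16, CT18 to CT22 and CT42 to CT46 they overlapped. A gene-level FPKM also counts reads from exons outside a deletion, and the deleted exons are not known here. These values alone therefore cannot settle whether each label is right, and every direction below refers to the libraries labelled LKO.

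Transcript levels in LKO livers were more often lower than higher. Of the 9745 entries tested, 3008 were lower (30.9%) and 867 higher (8.9%) in LKO livers at an adjusted p under 0.05 (limma), and 5021 had an unadjusted p under 0.05. The lowest adjusted p was 0.000943, and the median difference over all entries was -0.22. The 6 LKO and 6 Flox values did not overlap for 692 lower (7.1%) and 167 higher (1.71%) entries, of which 676 and 155 were also called. The excess of lower over higher calls depended on the scaling between libraries. On the deposited values 77.6% of the calls were lower. After median-ratio scaling the share was 53.6% (2280 lower, 23.5% of entries, and 1976 higher, 20.3%). After quantile normalisation it was 52.7% (2279 lower, 23.4%, and 2045 higher, 21%). Both scalings set the libraries to a common centre, so a median of all entries near 0 (-0.02 and -0.01) follows from the method. The more even split of calls goes with it. Single libraries decided how many entries passed. The count fell to 954 lower and 258 higher without LKO CT2A, 1183 and 267 without LKO CT2B, 1560 and 357 without LKO CT4A, 974 and 250 without Flox CT2B, 1344 and 295 without Flox CT2A, and 1838 and 522 without Flox CT0B. Without both genotypes' CT2 libraries no entry passed (1576 at an unadjusted p under 0.05; lowest adjusted p 0.157), and without the 4 LKO libraries that stood apart the median was -0.04. Among the called genes named below, Ash2l, Wdr5, Hlf, Tfrc and Scd2 did not pass under either other scaling, Hspa5, Srebf1 and Cyp3a11 did not under median-ratio scaling, and Gstm1, Apoa2 and Cd5l did not under quantile normalisation. Atf4, Atf3 and Proca1, not called on the deposited values, passed under both other scalings.

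The differences ran with transcript length. Among the fifth of genes with the shortest annotated transcripts (109 to 1813 nt), 17.9% were higher and 10.9% lower in LKO livers, with a median difference of 0.09. Among the fifth with the longest (4970 nt and over), 3.04% were higher and 52.8% lower, with a median of -0.42, and the 3 classes between lay in order at -0.16, -0.26 and -0.30. Without the 4 libraries these medians ran between 0.01 for the shortest and -0.12 for the longest class. The lengths were those of the longest GENCODE M21 transcript of each gene and covered 96.05% of the entries tested. Counts of list members below stand beside 30.9% lower and 8.9% higher over all entries, and those under median-ratio and quantile scaling beside the shares given for these. Where the median length of a gene list, other than a list of cell type markers, lay in the shortest or the longest class, it is given below with that list. The part of length in any 1 list was not tested.

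The 14 largest falls without overlap had differences of -3.87 to -1.92. The entry with the lowest adjusted p was Tgoln2, a trans-Golgi network membrane protein. It was listed at 2.15 FPKM in LKO CT0B, 0.605 FPKM in LKO CT4B and at most 2.63e-06 FPKM in the other 4 LKO libraries, against 6.44 to 10.3 (median 8.05) FPKM in Flox livers. No LKO value reached the Flox range (log2 difference -2.83, SE 0.26, adjusted p = 9.43e-04, limma; -2.06 without the 4 libraries). Tgoln2 shares most of its sequence with a near-identical copy, Tgoln1, which was at 5.65 to 30.2 FPKM in LKO livers and 26.2 to 38.5 FPKM in Flox livers, so how the authors' software divided reads between the copies makes the Tgoln2 value uncertain. In the 42 Flox libraries of the other times Tgoln2 itself ranged between 1.02e-06 and 14.6 FPKM. The same holds for Oaz1-ps, a processed copy of the antizyme gene Oaz1, which spanned 1.63e-04 to 16.9 FPKM in LKO livers and 28.3 to 41.0 FPKM in Flox livers.

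Mia2, which helps load large cargo into vesicles at ER exit sites, was at 0.474 to 13.5 (median 1.14) FPKM in LKO livers, against 16.1 to 24.8 (median 17.9) FPKM in Flox livers. Every LKO library was below every Flox library, and LKO CT0B, at 13.5 FPKM, was nearest to them (log2 difference -2.49, SE 0.56, adjusted p = 0.0166, limma). Arl1, a Golgi GTPase, spanned 0.768 to 17.3 (median 2.32) FPKM in LKO livers and 21.5 to 27.8 (median 25.3) FPKM in Flox livers, with a log2 difference of -2.47. Eif4ebp2, a repressor of cap-dependent translation, spanned 1.45 to 24.2 (median 1.96) FPKM in LKO livers and 27.97 to 44.4 (median 35.7) FPKM in Flox livers, a difference of -2.70. Fbp1, the fructose-1,6-bisphosphatase of gluconeogenesis, was at 32.6 to 321 (median 82.3) FPKM in LKO livers, against 353 to 468 (median 379.9) FPKM in Flox livers (log2 difference -1.95, SE 0.52, adjusted p = 0.0193, limma). Gnmt, which disposes of S-adenosylmethionine by methylating glycine, was at 94.4 to 619 (median 194) FPKM in LKO livers, against 789.8 to 1235 (median 869) FPKM in Flox livers. Neither gene's groups overlapped, and their differences were -0.28 and -0.50 without the 4 libraries. The other genes among the 14 largest falls without overlap were Sntb1, Fam8a1, Prkar2a (a regulatory subunit of protein kinase A), Crebl2, Fads6, Nudt12 and Masp1 (a protease of the lectin pathway of complement), at differences of -2.40 to -1.92. For these 12 genes beside Tgoln2 and Oaz1-ps, the difference without the 4 libraries was between -0.70 and -0.28, with a sign that the choice of genes without overlap fixes.

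The 14 largest rises without overlap had differences of 1.03 to 4.29. Snord15b, a small nucleolar RNA, was listed at 9.77 to 116 (median 17.9) FPKM in LKO livers, against 0 to 9.22 (median 0) FPKM in Flox livers, where 9.22 FPKM was the value of Flox CT2A (log2 difference 4.29, SE 0.76, adjusted p = 0.0166, limma; 3.70 without the 4 libraries). Gene-level FPKM of so short an RNA is uncertain in a poly(A) library. H2-K2 spanned 5.67 to 22.6 FPKM in LKO livers and 1.55 to 4.88 FPKM in Flox livers, but it is a close copy of the class I gene H2-K1, which differed by 0.11 (adjusted p = 0.614). Also among the 14 were Ndufa5 and Ndufa3 of respiratory chain complex I, and Cox7c and the assembly factor Cox20 of complex IV. Ndufa5 was at 46.2 to 137 (median 117) FPKM in LKO livers, against 35.3 to 45.5 (median 38.3) FPKM in Flox livers (log2 difference 1.19, SE 0.27, adjusted p = 0.0166, limma). Cox7c was at 232 to 561 (median 469.9) FPKM in LKO livers, against 176 to 209 (median 189) FPKM in Flox livers (log2 difference 1.03, SE 0.23, adjusted p = 0.0166, limma). In both genes LKO CT0B and CT4B were the LKO libraries nearest to the Flox range. Gnas, the stimulatory G protein subunit that couples the glucagon receptor to cAMP, was at 192 to 397 (median 343) FPKM in LKO livers, against 130.3 to 160.3 (median 145) FPKM in Flox livers (log2 difference 1.04, SE 0.22, adjusted p = 0.0166, limma), and kept a difference of 0.44 without the 4 libraries. The ribosomal protein gene Rpl14, the prefoldin subunit gene Pfdn6, the phospholemman gene Fxyd1, Fam193b, Lppr2, Tagap1 and Zfp692 had differences of 1.08 to 1.27. Without the 4 libraries the differences of the 14 genes were 0.17 to 3.70, positive by the choice of genes without overlap.

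The genes of the H3K4 methylation machinery were lower or not called. The WRAD core had 3 of 4 members lower and 0 higher, at a median difference of -0.37, beside 30.9% lower and a median of -0.22 over all entries (-0.10 without the 4 libraries, as against -0.04). Dpy30 was at 5.54 to 11.5 (median 8.84) FPKM in LKO livers, against 11.9 to 16.7 (median 12.6) FPKM in Flox livers, without overlap (log2 difference -0.57, SE 0.17, adjusted p = 0.0231, limma). Ash2l and Wdr5, whose ranges overlapped, differed by -0.38 and -0.36 (adjusted p = 0.0394 and 0.0414, limma). Of 18 KMT2 enzymes and complex-specific subunits, 8 were lower and 0 higher, at a median of -0.35 (-0.10 without the 4), and 5 and 6 were lower and 2 higher under median-ratio and quantile scaling. The lowest p-values among them were those of Hcfc1, the KMT2A and SETD1A cofactor, at 1.61 to 5.12 (median 2.49) FPKM in LKO livers and 5.16 to 7.08 (median 5.62) FPKM in Flox livers, of Hcfc2, of Bod1l and of Kmt2c, the enhancer monomethyltransferase, at 0.664 to 1.29 (median 1.05) FPKM in LKO livers and 1.43 to 1.96 (median 1.70) FPKM in Flox livers (log2 difference -0.41, SE 0.11, adjusted p = 0.0184, limma). Psip1, the chromatin tether of menin complexes, differed by -0.55. Of the 6 H3K4 demethylase genes, Kdm5a, Kdm1b and Kdm5c were lower (differences -0.42, -0.65 and -0.51) and none was higher, so genes for adding and for removing the mark were both among the lower ones. The demethylase list had a median of -0.37 (-0.11 without the 4). The median annotated transcript lengths of the 18 KMT2 genes and the 6 demethylase genes were 6211 and 5814.5 nt, both within the class of the longest transcripts.

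Among the clock genes, Clock and Rora were lower and Per2 was higher. Of 8 activators and ROR element regulators 2 were lower and 0 higher (median -0.46, -0.16 without the 4 libraries), no larger a share than the 30.9% lower over all entries. Clock was at 1.28 to 4.26 (median 2.31) FPKM in LKO livers, against 3.78 to 5.87 (median 4.83) FPKM in Flox livers (log2 difference -0.79, SE 0.18, adjusted p = 0.0166, limma), and only the highest LKO value entered the Flox range. Rora, which activates Arntl through ROR elements, was at 1.31 to 4.76 (median 2.30) FPKM in LKO livers, against 4.16 to 7.08 (median 6.00) FPKM in Flox livers (log2 difference -0.89, SE 0.22, adjusted p = 0.0169, limma). Arntl was at 2.41 to 5.54 (median 3.74) FPKM in LKO livers, against 3.85 to 7.68 (median 5.37) FPKM in Flox livers, a difference that missed the threshold (log2 difference -0.45, SE 0.18, adjusted p = 0.0658, limma). Of 7 tested Period, cryptochrome and related genes, Per2 was higher, Cry1 and Csnk1d were lower, and the list median was -0.50 with all LKO libraries and 0.26 without the 4. Per2 read 4.25 and 4.75 at CT0, 2.94 and 3.94 at CT2, 1.33 and 1.63 at CT4 in LKO livers, and 3.17 and 4.24 at CT0, 1.98 and 2.22 at CT2, 1.17 and 0.902 at CT4 in Flox livers, in FPKM. It fell over the 4 h in both genotypes, and the mean of the LKO pair was the higher one at each time (log2 difference 0.34, SE 0.11, adjusted p = 0.0322, limma; 0.34 without the 4 libraries). Cry1 was at 1.64 to 6.26 (median 2.37) FPKM in LKO livers, against 2.40 to 7.96 (median 4.99) FPKM in Flox livers (log2 difference -0.67, SE 0.21, adjusted p = 0.0261, limma), and Csnk1d, the kinase that marks PER proteins for turnover, differed by -0.59 without overlap.

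Nr1d1 and Dbp, direct targets of CLOCK and ARNTL that normally rise over these hours, did not pass, and their levels spread widely within each genotype. Nr1d1 read 1.21 and 0.948 at CT0, 8.62 and 6.43 at CT2, 13.5 and 45.2 at CT4 in LKO livers, and 3.22 and 1.62 at CT0, 40.9 and 8.34 at CT2, 45.1 and 18.1 at CT4 in Flox livers, in FPKM (log2 difference -0.70, SE 0.41, adjusted p = 0.178, limma). Dbp read 0.347 and 0.539 at CT0, 0.134 and 0.407 at CT2, 1.04 and 19.3 at CT4 in LKO livers, and 0.339 and 0.355 at CT0, 7.72 and 0.323 at CT2, 5.68 and 0.273 at CT4 in Flox livers, in FPKM (log2 difference -0.06, SE 0.76, adjusted p = 0.953, limma). Libraries of the same genotype and time thus differed severalfold: Dbp stood at 19.3 FPKM in LKO CT4B alone among LKO libraries, and at 7.72 and 5.68 FPKM in Flox CT2A and CT4A but below 1 FPKM in the other Flox libraries. Of 14 clock output genes 3 were lower: Hlf, a PAR bZIP factor (-0.79), Nampt, the rate-limiting enzyme of NAD+ salvage (-0.56), and the transferrin receptor gene Tfrc (-0.36). None was higher, and the lower ones were a smaller share than over all entries. The letters CACGTG, the canonical E-box, were found within 250 bases upstream of the RefSeq start (GRCm38.p6) of 4 of 7 Period and cryptochrome list genes with a promoter (57.1%) and of 6.86% of all 27025 genes with one. The 4 genes were Per1, Cry1, Ciart and Bhlhe41, of which only Cry1 was called. In the list of activators and ROR element regulators 0 of 7 genes held CACGTG. The ROR element letters TAGGTCA were found in 1 of 7 genes of that list, 0 of 7 of the Period and cryptochrome list and 2.55% of all. The Cry1 promoter holds CACGTG in capitals (chr10:85185055-85185304, minus strand).

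Cry1: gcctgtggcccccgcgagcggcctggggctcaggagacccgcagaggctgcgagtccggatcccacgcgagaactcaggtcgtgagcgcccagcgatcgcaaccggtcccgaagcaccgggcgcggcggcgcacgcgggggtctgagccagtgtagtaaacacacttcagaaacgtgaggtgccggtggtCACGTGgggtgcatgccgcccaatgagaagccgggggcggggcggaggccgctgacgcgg

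**Figure D2:**
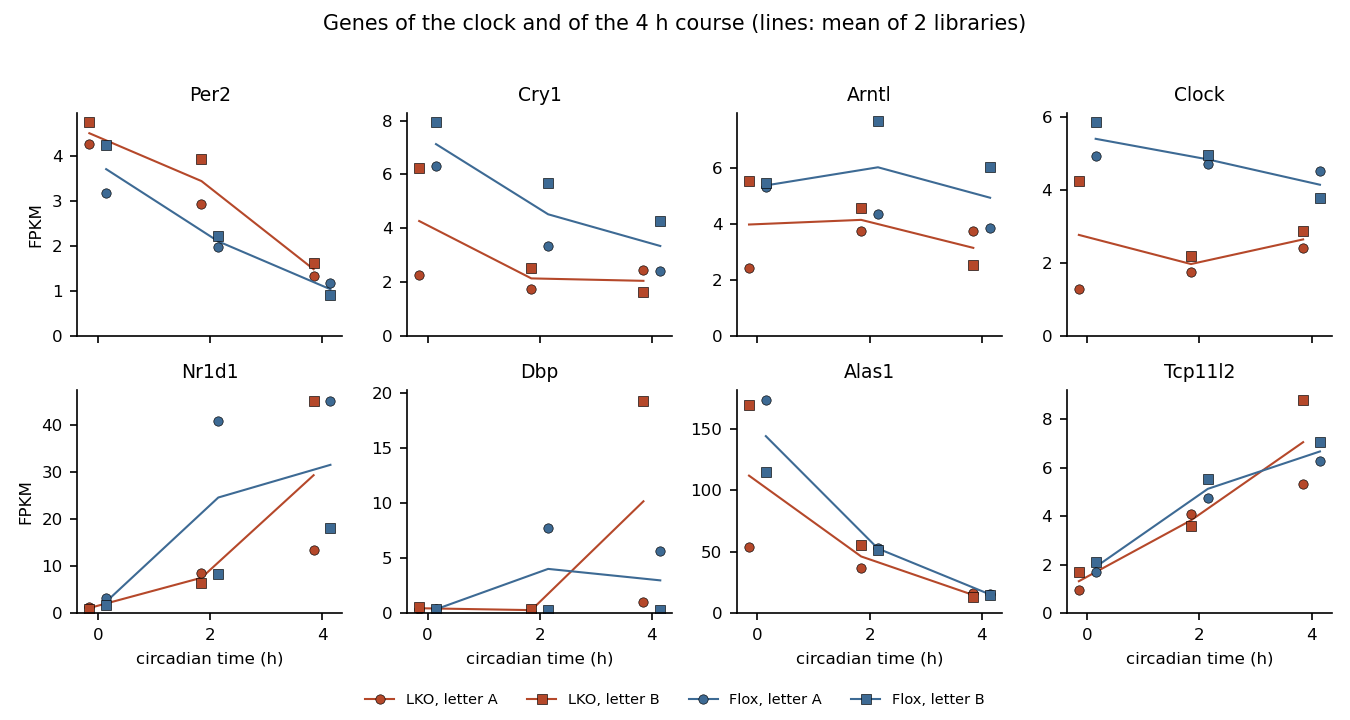
FPKM of Per2, Cry1, Arntl, Clock, Nr1d1, Dbp, Alas1 and Tcp11l2 against circadian time (h), 1 point per library (circles letter A, squares letter B), with lines through the mean of each pair, LKO in red and Flox in blue. The pairs are wide apart for Nr1d1 and Dbp, where LKO CT4B stands at 45.2 and 19.3 FPKM, and close for Per2, which falls in both genotypes.

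The genes of the endoplasmic reticulum were lower in LKO livers or not called. Of 31 chaperone and ER-associated degradation genes 12 were lower and 0 higher, beside 30.9% lower over all entries, at a median of -0.48 (-0.13 without the 4 libraries). Under median-ratio and quantile scaling 11 and 13 were lower and 1 and 2 higher. The sensors came first by p-value. Ern1, which encodes IRE1, was at 0.434 to 3.99 (median 0.715) FPKM in LKO livers, against 4.40 to 6.35 (median 5.20) FPKM in Flox livers, without overlap (log2 difference -1.54, SE 0.28, adjusted p = 0.0166, limma), and Atf6 was at 1.82 to 7.55 (median 2.59) FPKM in LKO livers, against 6.62 to 9.99 (median 8.32) FPKM in Flox livers (log2 difference -1.11, SE 0.25, adjusted p = 0.0166, limma). Of the genes these sensors act on, Herpud1 and Edem1, which serve the removal of misfolded proteins, differed by -1.23 and -0.96, Dnajc3, a co-chaperone of BiP, by -1.42, and Canx, the lectin chaperone calnexin, by -1.38. Hspa5, which encodes BiP, was at 99.8 to 457 (median 176) FPKM in LKO livers, against 184 to 534 (median 426) FPKM in Flox livers (log2 difference -0.997, SE 0.34, adjusted p = 0.0372, limma). The groups overlapped, and LKO CT0B, at 457 FPKM, was far above the other LKO libraries. Xbp1 (50.8 to 112 FPKM in LKO livers and 59.3 to 147 FPKM in Flox livers; log2 difference -0.49, SE 0.25, adjusted p = 0.134, limma) and Manf (26.9 to 58.5 FPKM in LKO livers and 20.3 to 64.8 FPKM in Flox livers; difference 0.00) did not pass.

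The promoters of 3 called genes of this list are shown because they hold the ER stress element, the bipartite site through which ATF6 and NF-Y act. CCAAT and CCACG separated by 9 bases, on either strand, were found in the 250 bases upstream of 9 of the 27 list genes with a RefSeq promoter (33.3%) and of 35 of all 27025 (0.130%). Of the 9 genes with it, 3 were lower (Hspa5, Canx and Dnajc3), and of the 18 without it, 7 were lower. The capitals mark the element on the strand of the gene, from chr2:34771840-34772089 (plus strand), chr11:50325674-50325923 (minus strand) and chr14:118937682-118937931 (plus strand) of GRCm38.p6.
Hspa5: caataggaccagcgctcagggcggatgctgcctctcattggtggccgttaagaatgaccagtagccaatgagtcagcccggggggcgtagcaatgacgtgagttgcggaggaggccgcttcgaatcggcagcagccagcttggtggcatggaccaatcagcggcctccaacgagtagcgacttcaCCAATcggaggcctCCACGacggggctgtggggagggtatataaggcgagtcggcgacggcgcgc
Canx: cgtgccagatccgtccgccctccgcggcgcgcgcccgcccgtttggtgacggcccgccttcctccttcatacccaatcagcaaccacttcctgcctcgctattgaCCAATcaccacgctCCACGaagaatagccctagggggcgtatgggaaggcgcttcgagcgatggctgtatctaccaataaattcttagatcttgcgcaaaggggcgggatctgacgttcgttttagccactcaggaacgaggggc
Dnajc3: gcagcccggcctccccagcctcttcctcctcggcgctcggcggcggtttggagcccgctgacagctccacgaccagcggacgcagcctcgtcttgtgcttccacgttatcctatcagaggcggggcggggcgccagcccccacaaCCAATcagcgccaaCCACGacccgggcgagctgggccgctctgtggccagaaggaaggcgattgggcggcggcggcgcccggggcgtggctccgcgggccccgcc

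Genes of transport out of the ER were likewise more often lower than higher. Of 34 translocation and ER-Golgi transport genes 15 were lower and 0 higher, at a median of -0.58 (-0.09 without the 4 libraries), and 15 were lower and 2 higher under both other scalings. Sec16a, the scaffold of ER exit sites, was at 3.82 to 10.3 (median 5.86) FPKM in LKO livers, against 10.2 to 12.7 (median 11.5) FPKM in Flox livers (log2 difference -0.78, SE 0.19, adjusted p = 0.0167, limma). The COPII coat gene Sec24d differed by -1.18, the COPI coat genes Copb1 and Copb2 by -0.91 and -0.998, and the cargo receptor gene Tmed2 by -0.88, the last without overlap. Of 23 cytosolic chaperone genes 10 were lower and 0 higher (median -0.59, -0.10 without the 4). Cct5 of the TRiC chaperonin and Hspa4 differed by -0.98 and -0.70, and Dnaja1 and Bag3, both inducible by heat shock, by -0.76 and -0.96. The integrated stress response list was the one of these with rises: 2 of 14 tested genes were higher and 0 lower (median 0.20, 0.15 without the 4), beside 8.9% higher over all entries. Under median-ratio and under quantile scaling 8 of the 14 were higher and 0 lower, beside 20.3% and 21% higher over all entries. The 2 on the deposited values were Cebpb, at 37.9 to 64.2 (median 54.8) FPKM in LKO livers and 22.5 to 46.4 (median 34.8) FPKM in Flox livers (log2 difference 0.60, SE 0.20, adjusted p = 0.0327, limma), and Nupr1, at 1.004 to 5.75 FPKM in LKO livers and 0.261 to 3.10 FPKM in Flox livers (log2 difference 0.90, SE 0.33, adjusted p = 0.0493, limma). Atf4 and Atf3 did not pass on the deposited values, at 0.42 and 0.47, but did under median-ratio scaling (0.68 and 0.59) and quantile scaling (0.56 and 0.63).

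Ribosomal protein genes were more often higher than lower, and translation factor genes more often lower than higher. Of 78 cytosolic ribosomal protein genes 30 were higher and 3 lower, at a median of 0.38, beside 8.9% higher over all entries, and the median without the 4 libraries was 0.04. Rpl28 was at 213 to 489 (median 387) FPKM in LKO livers, against 150.1 to 177 (median 167) FPKM in Flox livers, without overlap (log2 difference 1.02, SE 0.22, adjusted p = 0.0166, limma). Rpl37 was also higher without overlap (0.65), while Rpl9 and Rpl5 were lower without overlap (-0.74 and -0.77). Ribosomal protein genes have many processed copies in the genome, so reads may be divided among copies, and the median annotated length of the list was 1077 nt, within the class of the shortest transcripts. Of 25 translation factor genes 15 were lower and 2 higher (median -0.47, -0.06 without the 4), and 9 and 11 were lower and 3 higher under median-ratio and quantile scaling. Eif4g1, the scaffold of cap-dependent initiation, was at 15.0 to 45.3 (median 21.9) FPKM in LKO livers, against 47.4 to 57.4 (median 50.9) FPKM in Flox livers (log2 difference -1.01, SE 0.23, adjusted p = 0.0166, limma). Eef1a1, which delivers aminoacyl-tRNA, was at 380.3 to 1102 (median 675) FPKM in LKO livers, against 1272 to 1537 (median 1339) FPKM in Flox livers (log2 difference -0.99, SE 0.25, adjusted p = 0.0178, limma), and in neither gene did the groups overlap. Eif4g2 differed by -1.07. Eif5b was 1 of the 2 that rose (0.50). Of 31 ribosome biogenesis genes 6 were lower and 1 higher, a smaller share lower than the 30.9% over all entries, with Bop1 (-0.85) and Dkc1 (-0.50) among the lower ones. This balance depended on the scaling: under both other scalings 6 were higher and 3 lower, and the median of -0.16 became 0.03 and 0.07.

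Splicing factor genes went both ways, 13 of 49 higher and 11 lower (median -0.04, a value that was positive under both other scalings, where 19 were higher and 9 lower). Clk1 and Clk4, kinases that phosphorylate SR proteins and whose own transcripts are known to retain introns, were higher: Clk1 was at 10.7 to 34.1 (median 21.3) FPKM in LKO livers, against 4.71 to 11.8 (median 9.49) FPKM in Flox livers (log2 difference 1.07, SE 0.24, adjusted p = 0.0166, limma), and Clk4 differed by 0.96 without overlap. Snrpa, of the U1 particle, rose (0.71), while Prpf8, the core of the spliceosome, and Snrpb, a shared Sm protein, fell (-0.72 and -1.07). Of 32 proteasome genes 14 were lower and 1 higher (median -0.36, -0.15 without the 4), led by Psme4, an activator subunit (-0.99), and the regulatory particle genes Psmd13 and Psmd2 (-1.15 and -0.83), all without overlap. Of 51 nuclear-encoded oxidative phosphorylation genes 14 were higher and 10 lower (median 0.09, 0.02 without the 4; median length 1231 nt), beside 8.9% higher and 30.9% lower over all entries. The split depended on the scaling, with 23 higher and 8 lower under median-ratio scaling and 22 higher and 10 lower under quantile scaling. Small accessory subunits such as Ndufa5 and Cox7c were among the higher ones, whereas Atp5b, the catalytic beta subunit of ATP synthase, was at 57.8 to 266 (median 111) FPKM in LKO livers, against 293 to 329 (median 308) FPKM in Flox livers (log2 difference -1.36, SE 0.33, adjusted p = 0.0169, limma), and Ndufv1 and Sdhd differed by -0.96 and -1.26.

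**Figure D3:**
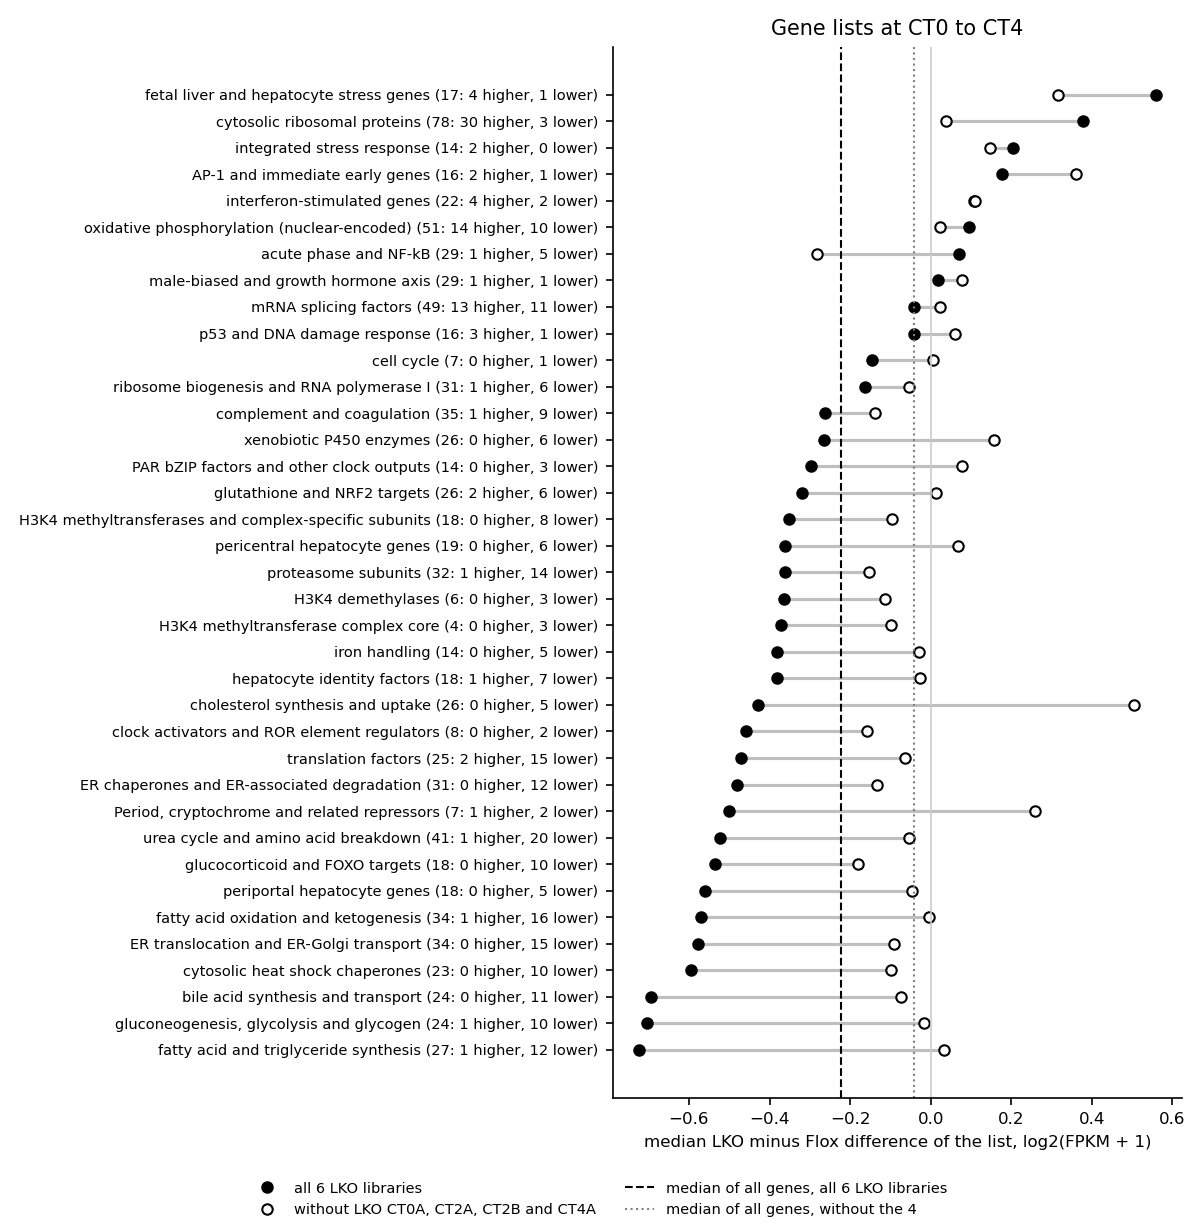
Median LKO minus Flox difference (log2(FPKM + 1)) of each gene list, with all 6 LKO libraries and without the 4 that stood apart, and the median of all entries tested as vertical lines. The ribosomal protein list lies at 0.38 and 0.04, the fatty acid synthesis list at -0.72 and 0.03, and the cholesterol list at -0.43 and 0.50.

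Genes of amino acid, fatty acid oxidation, bile acid and glucose metabolism were more often lower than higher with all 6 LKO libraries, beside 30.9% lower and 8.9% higher over all entries. The medians of these lists were near 0 without the 4 libraries. In amino acid breakdown and the urea cycle 20 of 41 genes were lower and 1 higher (median -0.52, -0.05 without the 4 libraries). Cps1, the entry step of the urea cycle, was at 64.2 to 337 (median 113) FPKM in LKO livers, against 337 to 449 (median 403) FPKM in Flox livers (log2 difference -1.54, SE 0.34, adjusted p = 0.0166, limma), and Tdo2, which opens the tryptophan ring, was at 52.6 to 219.7 (median 79.2) FPKM in LKO livers, against 269.8 to 379 (median 297) FPKM in Flox livers (log2 difference -1.60, SE 0.33, adjusted p = 0.0166, limma). In fatty acid oxidation and ketogenesis 16 of 34 were lower and 1 higher (median -0.57, 0.00 without the 4). Etfdh, which passes electrons from acyl-CoA dehydrogenases to ubiquinone, differed by -1.501, Echs1 by -1.18 and Ehhadh, the peroxisomal bifunctional enzyme, by -1.59. Gldc of the glycine cleavage system, Oat and the periportal gene Etnppl were lower without overlap (-1.19, -1.13 and -1.25). Of 24 bile acid genes 11 were lower and 0 higher (median -0.69, -0.07 without the 4), among them the canalicular pump Abcc2 (-1.57) and the conjugating enzyme gene Slc27a5 (-1.09). Of 24 genes of glucose metabolism 10 were lower and 1 higher (median -0.71, -0.02 without the 4), with Pcx, the pyruvate carboxylase that starts gluconeogenesis, at 20.4 to 73.4 (median 28.8) FPKM in LKO livers and 74.6 to 104 (median 80.9) FPKM in Flox livers (log2 difference -1.22, SE 0.29, adjusted p = 0.0166, limma), and Pgk1 at a difference of -1.22. Under median-ratio scaling 13 amino acid, 11 fatty acid oxidation, 7 bile acid and 10 glucose genes were lower.

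In lipid synthesis the LKO libraries differed among themselves. Of 27 fatty acid and triglyceride synthesis genes 12 were lower and 1 higher, at a median of -0.72 with all LKO libraries and 0.03 without the 4. Fads2, the delta-6 desaturase, read 3.80 and 58.6 at CT0, 9.57 and 7.35 at CT2, 7.61 and 58.1 at CT4 in LKO livers, and 56.3 and 81.4 at CT0, 56.6 and 88.1 at CT2, 78.6 and 71.8 at CT4 in Flox livers, in FPKM (log2 difference -2.24, SE 0.61, adjusted p = 0.0214, limma). LKO CT0B and CT4B were thus within or near the Flox range and the other 4 LKO libraries far below it. Gpam, which starts triglyceride synthesis, and Srebf1, the lipogenic transcription factor, differed by -2.00 and -0.77. Of 26 cholesterol synthesis and uptake genes 5 were lower and 0 higher (median -0.43), a smaller share lower than the 30.9% over all entries. Without the 4 libraries the median of the same list was 0.50, the highest of all 53 lists in that comparison, and none of its members passed. Stard4, a sterol carrier, and Insig2, which retains SCAP in the ER, differed by -1.78 and -0.87.

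Detoxification genes had few calls. Of 26 P450 genes 6 were lower and 0 higher (median -0.26, 0.16 without the 4 libraries), below the 30.9% lower over all entries, and under median-ratio scaling 4 were higher and 3 lower. Cyp2c29 was at 29.6 to 316 (median 98.5) FPKM in LKO livers and 267 to 498 (median 449.8) FPKM in Flox livers (log2 difference -2.01, SE 0.53, adjusted p = 0.0191, limma), and Cyp3a11 differed by -0.77. Cyp2c and Cyp3a genes are families of near-identical copies, so reads may be divided among them. Of 26 glutathione and NRF2 target genes 6 were lower and 2 higher: Gstm1 and Gstm2 rose (0.56 and 0.49; 0.37 and 0.64 without the 4), while Gsta3 fell (-0.97). Under median-ratio scaling 5 of this list were higher and 2 lower, and under quantile scaling 3 and 4. The list median was -0.32 (0.01 without the 4), and its median annotated length was 1638 nt, within the class of the shortest transcripts. In the list of male-biased and growth hormone genes 1 of 29 was higher and 1 lower. The higher one was the major urinary protein gene Mup2, of a family of near-identical copies, at 203 to 1293 (median 556) FPKM in LKO livers and 155 to 290.4 (median 219) FPKM in Flox livers (log2 difference 1.26, SE 0.36, adjusted p = 0.0213, limma), and the lower one was Ugt2b38 (-1.68).

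**Figure D4:**
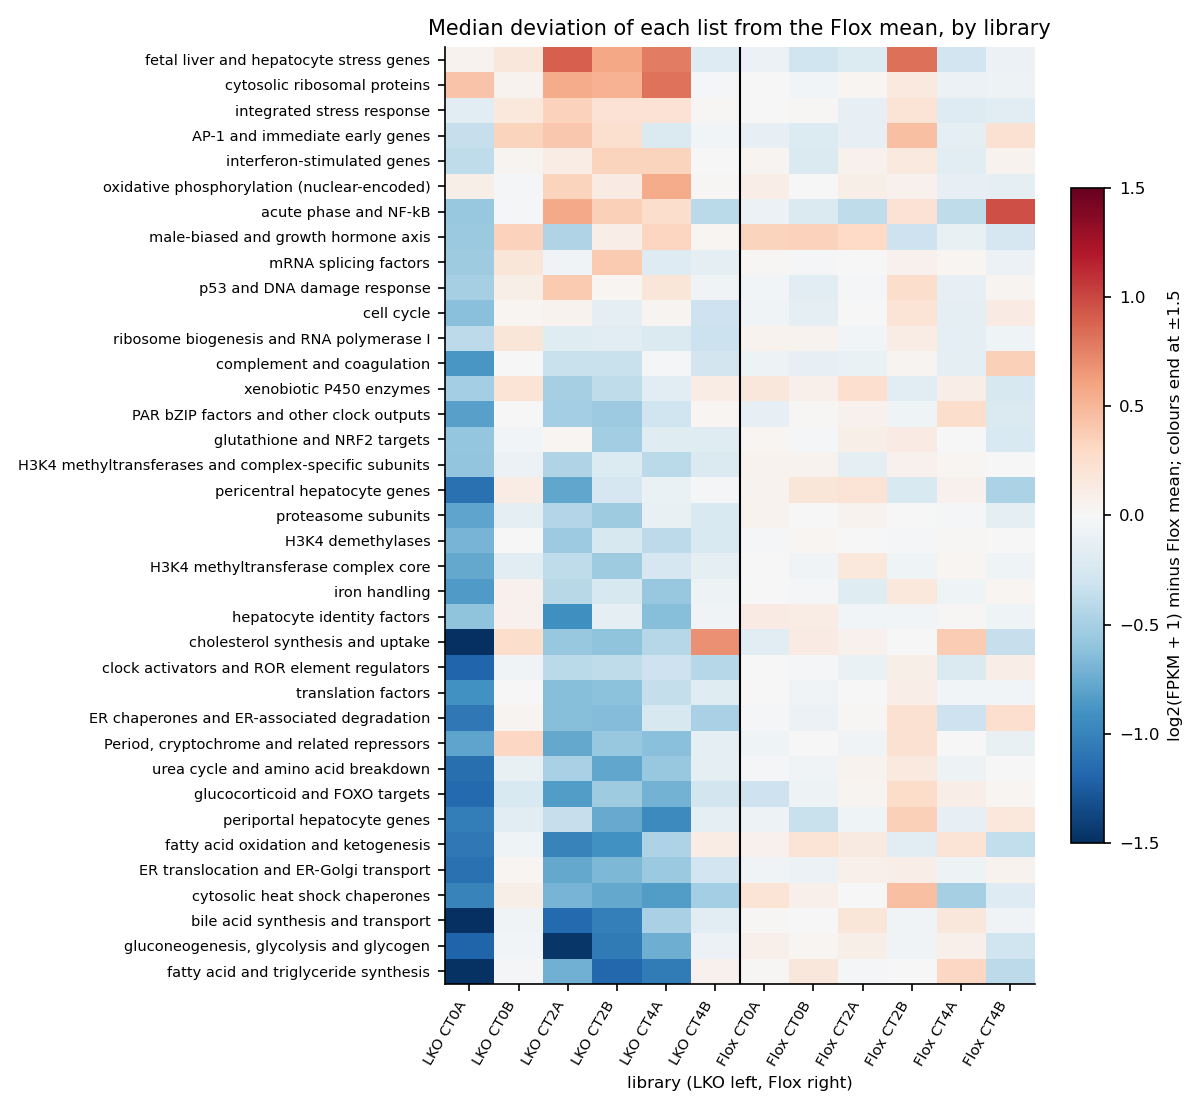
Heat map of the median of each gene list per library, relative to the Flox mean of each gene (log2(FPKM + 1)), with LKO libraries left of Flox libraries. The colour scale ends at ±1.5. The lowest medians are in the columns of LKO CT0A, CT2A, CT2B and CT4A, and the cholesterol list is low in those and high in LKO CT4B.

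Of 18 transcription factors that maintain hepatocyte identity 7 were lower and 1 higher (median -0.38, -0.03 without the 4 libraries), beside 30.9% lower over all entries, and 5 and 6 were lower and 4 higher under median-ratio and quantile scaling. Prox1 was at 1.63 to 7.59 (median 2.75) FPKM in LKO livers, against 7.69 to 15.7 (median 12.0) FPKM in Flox livers, without overlap (log2 difference -1.49, SE 0.32, adjusted p = 0.0166, limma). Nr5a2, which drives bile acid genes, Hnf4a, the central hepatocyte factor, and Ppara, the fatty acid sensor, differed by -1.15, -0.71 and -1.07. Of 18 glucocorticoid and FOXO pathway genes 10 were lower and 0 higher (median -0.54, -0.18 without the 4), including the glucocorticoid receptor gene Nr3c1, at 2.16 to 8.02 (median 3.56) FPKM in LKO livers and 9.31 to 10.6 (median 9.81) FPKM in Flox livers (log2 difference -1.08, SE 0.23, adjusted p = 0.0166, limma), and Foxo1 and Foxo3 (-0.82 and -1.41). Of 19 pericentral genes 6 were lower, and of 18 periportal genes 5, shares close to the 30.9% over all entries, and 0 of either list were higher (medians -0.36 and -0.56). Without the 4 libraries these medians were 0.07 and -0.05. Under median-ratio scaling 1 pericentral gene was higher and 3 lower, and 2 periportal genes were higher and 3 lower.

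Plasma protein transcripts moved both ways. Apob, the long transcript of the main VLDL protein, was at 65.2 to 276 (median 95.4) FPKM in LKO livers, against 300.2 to 405 (median 339.7) FPKM in Flox livers, without overlap (log2 difference -1.54, SE 0.31, adjusted p = 0.0166, limma). The short apolipoprotein transcripts Apoc3 and Apoa2 were higher, Apoc3 at 2570.3 to 8193 (median 6673) FPKM in LKO livers and 2254 to 3227 (median 2778) FPKM in Flox livers (log2 difference 0.93, SE 0.29, adjusted p = 0.0270, limma) and Apoa2 at a difference of 0.71. Of 35 complement and coagulation genes 9 were lower and 1 higher, a smaller share lower than the 30.9% over all entries, with F5, coagulation factor V, at 9.94 to 47.3 (median 16.8) FPKM in LKO livers and 47.5 to 63.6 (median 52.1) FPKM in Flox livers (log2 difference -1.40, SE 0.31, adjusted p = 0.0166, limma). Of 29 acute phase genes 5 were lower, also a smaller share, and 1 higher, among them Fga and Itih4 (-1.41 and -1.08), and the list median was 0.07 with all LKO libraries and -0.28 without the 4. That list stood highest in Flox CT4B, where its median deviation from the Flox mean was 0.97. Of 14 iron genes 5 were lower and 0 higher, with Hfe, the regulator of hepcidin, at a difference of -0.65, but 2 were lower and 2 higher under median-ratio scaling.

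Stress and injury genes supplied some of the rises. In the list of fetal liver and hepatocyte stress genes 4 of 17 were higher and 1 lower, at a median of 0.56 (0.32 without the 4 libraries), beside 8.9% higher over all entries, and 7 and 8 were higher under median-ratio and quantile scaling. The median annotated length of the list was 1507 nt, within the class of the shortest transcripts, of which 17.9% were higher at a median of 0.09. Spp1, which encodes osteopontin, was at 25.7 to 87.0 (median 67.4) FPKM in LKO livers, against 9.98 to 48.9 (median 15.9) FPKM in Flox livers (log2 difference 1.54, SE 0.33, adjusted p = 0.0166, limma; 0.95 without the 4). The calcium-binding protein genes S100a11 and S100a6 differed by 1.62 and 1.23, but S100a6 stood at -0.0012 without the 4 libraries, and Meg3, a maternally expressed long non-coding RNA, differed by 1.47. Scd2 was the member that fell (-0.75). The median deviation of this list from the Flox mean was 0.90, 0.58 and 0.76 in LKO CT2A, CT2B and CT4A, and 0.83 in Flox CT2B, where Spp1 read 48.9 FPKM. Of 16 p53 and DNA damage genes, Bax, Gadd45b and Gadd45g rose (0.58, 0.77 and 1.56) and Trp53inp1 fell (-0.87). The median of that list was -0.04 (0.06 without the 4), and its sign depended on the scaling (0.17 under median-ratio and 0.19 under quantile scaling). Of 16 immediate early genes Ier2 and Ier3 rose (0.66 and 0.56) and Btg1 fell (-0.65). Of 22 interferon-stimulated genes 4 were higher and 2 lower, but 11 were higher and 2 lower under median-ratio scaling and 10 and 1 under quantile scaling, beside 20.3% and 21% higher over all entries. Stat2, a subunit of the factor that interferon activates, was at 9.44 to 34.3 FPKM in LKO livers and 7.21 to 14.3 FPKM in Flox livers (log2 difference 0.82, SE 0.22, adjusted p = 0.0184, limma), and Ifi27l2a differed by 1.09. Of the 7 cell cycle genes that passed the filter Pcna fell (-0.65) and none rose. Of the nuclear long non-coding RNAs, Neat1 was at 94.6 to 549.7 (median 172) FPKM in LKO livers, against 60.9 to 135 (median 90.6) FPKM in Flox livers (log2 difference 1.07, SE 0.32, adjusted p = 0.0245, limma), with a difference of 1.19 without the 4, while Malat1 missed the threshold (log2 difference -0.64, SE 0.24, adjusted p = 0.0525, limma).

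Markers of other cell types were measured in the same libraries, and in bulk tissue fewer cells of a type and less RNA per cell cannot be told apart. The summed FPKM of 15 hepatocyte markers was 42978 to 69111 in LKO livers and 44122 to 51258 in Flox livers, so both genotypes carried the transcripts of the labelled tissue at high levels. Kupffer cell markers summed to 80.5 to 168 FPKM in LKO livers and 131 to 272 FPKM in Flox livers, and 4 of 10 tested were lower and 0 higher, among them Cd5l (-0.79) and Vsig4 (-0.73). The median annotated lengths of the hepatocyte and Kupffer cell lists were 1581 and 1678.5 nt, within the class of the shortest transcripts. Of 5 tested monocyte-derived macrophage markers 2 were higher and 1 lower. Of 7 tested alveolar macrophage markers 1 was lower and 0 higher, and 1 was higher and 0 lower under both other scalings. The myeloid gene Lyz2 differed by -1.37. Of 14 sinusoidal endothelial markers 5 were lower and 1 higher, a share near the 30.9% lower over all entries. The list median was -0.24, beside -0.22 over all entries, and 3 were lower and 2 higher under both other scalings. Among the lower ones, Kdr, the VEGF receptor, was at 0.503 to 1.87 (median 1.30) FPKM in LKO livers and 1.89 to 4.08 (median 3.12) FPKM in Flox livers, without overlap (log2 difference -0.85, SE 0.16, adjusted p = 0.0166, limma), and Gpr182 differed by -0.82. None of 14 stellate cell markers was called (sums of 90.5 to 179 FPKM in LKO livers and 96.4 to 191 FPKM in Flox livers). Of 4 tested cholangiocyte markers 2 were higher, including Krt19 (0.82), with sums of 36.4 to 103 FPKM in LKO livers and 19.2 to 72.2 FPKM in Flox livers. Neutrophil markers summed to 0.939 to 48.1 FPKM in LKO livers and 1.94 to 8.13 FPKM in Flox livers. The sums of T and NK cell markers were 3.09 to 11.3 FPKM in LKO livers and 2.73 to 6.19 FPKM in Flox livers, and those of erythroid markers 377 to 1501 FPKM in LKO livers and 351 to 1193 FPKM in Flox livers, each with overlapping groups. In LKO CT0A, CT2A, CT2B and CT4A the T and NK cell sums were 11.3, 10.6, 11.1 and 9.37 FPKM, and the neutrophil sums 7.94, 48.1, 19.6 and 8.51 FPKM. In LKO CT0B and CT4B they were 4.99 and 3.09 FPKM, and 4.47 and 0.939 FPKM. The exact permutation p, adjusted over 24 library measures, was 0.159 for T and NK cells and 0.278 for neutrophils. The T cell marker Cd3d and the neutrophil marker Elane were below 0.5 FPKM in every library, but these single genes do not stand for the sums of their lists. The part of these markers in the differences of other genes was not tested.

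Over the 4 h themselves few genes could be shown to move. From CT0 to CT4 no entry passed in LKO livers (361 at an unadjusted p under 0.05, lowest adjusted p 0.109) or in Flox livers (267, lowest adjusted p 0.0975), and no entry differed between genotypes in its course (148 at an unadjusted p under 0.05). With 2 libraries per time the LKO count rested on single libraries: it was 2373 without LKO CT0B and 41 without LKO CT4B, and the count of differing courses was 28 without LKO CT4B. Averaged over both genotypes, a contrast chosen after seeing the data, 6 entries passed, 3 up and 3 down. Alas1, the first enzyme of haem synthesis, read 54.0 and 169.7 at CT0, 36.9 and 55.2 at CT2, 16.4 and 13.03 at CT4 in LKO livers, and 173 and 115 at CT0, 53.2 and 51.7 at CT2, 15.3 and 15.0 at CT4 in Flox livers, in FPKM (CT4 minus CT0 -2.88, SE 0.33, adjusted p = 0.0219, limma). Both genotypes fell to about the same level at CT4, at differences of -2.63 in LKO livers and -3.14 in Flox livers. Per2 changed by -1.15 in LKO livers and -1.20 in Flox livers. Tcp11l2 rose by 1.78 in LKO livers and 1.40 in Flox livers, and Slc8b1, the mitochondrial sodium-calcium exchanger gene, by 1.59 in LKO livers and 1.38 in Flox livers. The other 2 entries have no proper gene name.

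One day later, at CT24 to CT28, the same genotype comparison gave far fewer calls. Those 12 libraries gave 111 entries higher and 18 lower in LKO livers of 9662 tested with both windows, against 965 and 3462 at CT0 to CT4 in the same fit. The difference between the windows itself (LKO minus Flox at CT0 to CT4, minus the same at CT24 to CT28) was positive for 3 entries (0.031%) and negative for 33 (0.342%), with 3609 at an unadjusted p under 0.05. Single libraries again moved the count: it was 490 positive and 3405 negative without LKO CT0B, 312 and 1547 without LKO CT4B, and 1 to 2 positive and 13 to 19 negative without LKO CT0A, CT2A, CT2B or CT4A or Flox CT0A, CT0B, CT2B or CT4A. Without the 4 libraries that stood apart 0 were positive and 5 negative, and all 5 were among the 33. Scgb1c1, a secretoglobin gene, was listed at 0 to 0.351 FPKM in LKO livers and 0 to 0.219 FPKM in Flox livers at CT0 to CT4, and at 36.4 to 215 FPKM in LKO livers and 0 to 0.392 FPKM in Flox livers at CT24 to CT28 (difference between windows -5.77, SE 0.43, adjusted p = 1.29e-07, limma). At CT0 to CT4 the gene was near 0 in both genotypes, and it reached the minimum mean of 1 FPKM over the 24 libraries only through the LKO libraries of the later window, so that a difference had to follow. Mup6, Cyp3a41a, Cyp3a41b and Sult1e1, the other 4 of the 5, passed the minimum in the same way. Cyp3a41a and Cyp3a41b, near-identical P450 genes known for expression in female mouse liver, behaved likewise, Cyp3a41a at 0.172 to 0.894 FPKM in LKO livers and 0.939 to 1.43 FPKM in Flox livers at CT0 to CT4, and at 9.28 to 56.2 FPKM in LKO livers and 0.555 to 1.51 FPKM in Flox livers at CT24 to CT28 (-3.90, SE 0.42, adjusted p = 3.11e-05, limma). Sult1e1, the oestrogen sulfotransferase, Mup6 and Cyp2c55 had differences between windows of -2.42, -2.99 and -2.06. The 3 positive ones were Syt3, Proca1 and Ankrd54 (0.77, 1.19 and 0.67).

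Against CT12 to CT16, the opposite phase of the first day, no difference between windows passed among 9644 entries (775 at an unadjusted p under 0.05, lowest adjusted p 0.0544), although that window alone gave 1608 higher and 1487 lower. The lowest p-values were those of Foxn3, Nfib, Vcpkmt and Dclre1a, with differences between windows of -0.89, -0.70, -0.82 and -0.67. Without the 4 libraries that stood apart, 52 were positive and 103 negative, and without LKO CT0B 6 were negative. The ribosomal protein list had 51 of 78 members higher at CT12 to CT16 and 0 at CT24 to CT28, with medians of 0.62 and 0.03, beside 0.38 at CT0 to CT4. Over all entries 1608 of 9644 were higher at CT12 to CT16 but only 111 of 9662 at CT24 to CT28, with medians of -0.05 and 0.03. The cholesterol list had a median of -0.27 at CT12 to CT16 and 0.66 at CT24 to CT28, beside -0.43 at CT0 to CT4, and no member of either list passed the test of the difference between windows.

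**Figure D5:**
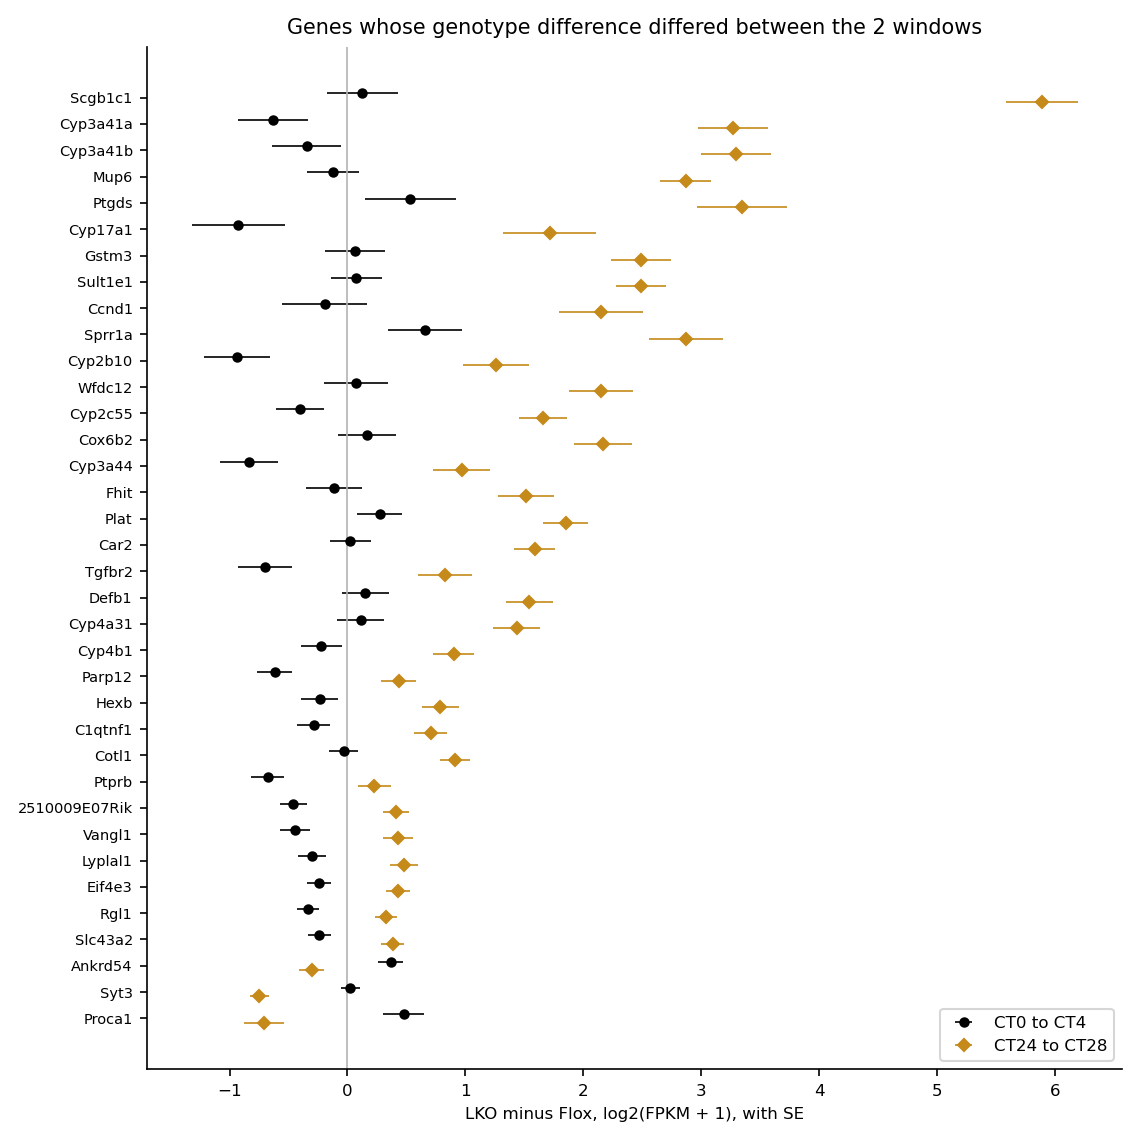
LKO minus Flox difference (log2(FPKM + 1), with SE) of the 36 entries whose difference between windows passed, at CT0 to CT4 (black circles) and at CT24 to CT28 (orange diamonds). The diamonds of 33 entries lie to the right of their circles, led by Scgb1c1 at 5.89 against 0.13.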

How the data were processed

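Gene expression was measured by RNA-seq of poly(A)-selected liver RNA. Per the labels, libraries were made from 200 ng of RNA with a stranded kit and 12 cycles of PCR. Per the submitters' processing notes, Trimmomatic, FastQC, HISAT2 and Cufflinks were used with mm10, while the sources used here give neither versions nor counting settings. The deposited values are the authors' FPKM per gene and library, in a table of 13094 entries, of which 65 symbols were repeated. FPKM is relative to the total of each library, so a few abundant RNAs can lower all others, and Cufflinks divides reads among near-identical copies.

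From these, log2(FPKM + 1) was taken for the 9745 entries that averaged 1 FPKM or more over the 12 libraries and fitted with limma 3.58.1 (R 4.3.3, trend and robust) with genotype and time point, and p-values were adjusted by Benjamini and Hochberg's method over all entries (threshold 0.05). Windows were compared by an interaction fitted on 24 libraries. Library measures were tested by exact permutation within time points (216 arrangements). In simulations of the genotype difference on 9745 genes, 72% of changes of 0.5 and 94% of changes of 1 (log2) were called, with 4.05% of calls false. For the difference between windows (9662 genes) the shares were 38% and 80%, with 7.81% false. Both simulations gave every library the spread of the Flox libraries, with genes independent of each other. In the data the median SD was 0.36 in LKO livers and 0.15 in Flox livers, and 4 LKO libraries stood apart together. The simulated shares therefore do not give the power or the share of false calls in these data.

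Named genes were, for the genotype difference, the 14 largest of each sign that passed without overlap and with at least 2 FPKM in 1 genotype, entries without a proper name being passed over (3 higher, 1 lower). Up to 5 members with the smallest p of each list, up to 6 genes per direction of each other contrast, and Xbp1, Hspa5, Manf, Arntl, Nr1d1, Per2 and Rn45s were also named. Alb, Canx, Dbp, Tgoln1, H2-K1, Cd3d and Elane were added after their values were seen. The comparison, the 53 lists (1072 of 1140 listed genes had an entry) and the rules were chosen with earlier results of these data known. Transcript lengths came from GENCODE M21 and promoters from RefSeq (GRCm38.p6). Alternatives were other pseudocounts, filters, scalings, covariates, a replicate block, all 96 libraries, and leaving out libraries or time points.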

Additional observations from a re-analysis of the deposited data

Results flagged for a closer look

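In groups of 6 libraries, 25 of 334 groups of named genes (7.49%) held a library far from the others by Dixon's criterion. For independent groups of normally distributed values it flags about 1 in 20, which FPKM of related genes need not follow. The 6 values span CT0, CT2 and CT4, so a gene that changes over the 4 h, such as Alas1, can be flagged for its time. Of the 25 flags, 9 were of LKO CT0B, which stood above the other LKO libraries, nearer to the Flox level. It held 2.15 FPKM of Tgoln2, 6.26 FPKM of Cry1, 5.66 FPKM of Nampt and 8.31 FPKM of Vsig4. For the stress-inducible genes it held 457 FPKM of Hspa5, 112 FPKM of Xbp1, 24.2 FPKM of Dnaja1 and 39.0 FPKM of Bag3, and its Alas1 level was 169.7 FPKM. LKO CT4B stood apart in the clock outputs Nr1d1 (45.2 FPKM) and Dbp (19.3 FPKM), and LKO CT2B in Meg3 (26.5 FPKM).

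Flox CT2B accounted for 7 of the 25. It was the highest Flox library in Nupr1 (3.10 FPKM), Atf3 (2.32 FPKM), Gadd45b (1.44 FPKM), Ier3 (1.76 FPKM), Spp1 (48.9 FPKM), S100a11 (21.5 FPKM) and Eef1a1 (1537 FPKM), 6 of which belong to the stress, immediate early and injury lists. Flox CT4B was highest in the acute phase genes Fga (2561 FPKM) and Itih4 (519 FPKM) and in Gldc (43.1 FPKM), Flox CT4A in Prpf8 (22.6 FPKM) and Nfib (9.42 FPKM), and Flox CT2A in Snord15b (9.22 FPKM, the others being listed at 0).

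The genotype difference itself differed between CT0 to CT4 and CT24 to CT28, by the limma interaction, for the 9 genes the report names. The differences between windows were -5.77 for Scgb1c1, -2.99 for Mup6, -3.90 for Cyp3a41a, -3.64 for Cyp3a41b, -2.42 for Sult1e1, -2.06 for Cyp2c55, 0.77 for Syt3, 1.19 for Proca1 and 0.67 for Ankrd54 on the log2 scale. Of these, the first 5 also passed without the 4 LKO libraries that stood apart. These 5 reached the minimum mean only through the LKO libraries of CT24 to CT28 and were below 1 FPKM in every LKO library of CT0 to CT4. Leaving out 4 of the latter could therefore hardly change their result, and it is no further support.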

How the results depend on the processing

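The count of called genes moved more with the choice of libraries than the direction of single genes did. On the deposited values 867 entries were higher and 3008 lower in LKO livers. Leaving out 1 library at a time gave 250 to 1159 higher and 954 to 4388 lower. Without the CT2 libraries, and without LKO CT0A, CT2A, CT2B and CT4A, both counts were 0, and without the CT4 libraries they were 328 and 1106. A minimum mean of 5 FPKM left 495 and 1501, log2 Rn45s as a covariate 345 and 1641, and median-ratio and quantile scaling gave 1976 and 2045 higher. Other pseudocounts, no filter, no time factor, all 96 libraries and limma without its trend gave counts within 1.5 times. Of the 148 named called genes, 139 and 140 remained called under median-ratio and quantile scaling, 107 with the Rn45s covariate, and 0 without the 4 libraries, where S100a6 reversed to -0.0012. The causes of these moves were not tested.

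The letters were not used as pairs: same-labelled LKO and Flox libraries correlated at -0.33 to 0.29 in their deviations, and in 2 of 6 labels the best match was the same label. A replicate block of time and letter gave 712 higher and 2834 lower for the genotype difference.

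Against CT24 to CT28 the 3 positive and 33 negative entries became 0 and 5 with a minimum mean of 5 FPKM, 0 and 5 with the replicate block, 0 and 5 without the 4 libraries, and 432 and 2856 with all 96 libraries in the fit. A pseudocount of 0.1 gave 17 negative, median-ratio scaling 66 positive and quantile scaling 50 positive. Leaving out 1 library gave 1 to 490 positive and 13 to 3405 negative. Against CT12 to CT16 the counts of 0 became 52 and 103 without the 4 libraries, 2 negative with all 96 libraries, and 0 to 6 negative when 1 library was left out. For the genotype by time term, leaving out 1 library gave 0 to 28. For the change between CT0 and CT4 it gave 0 to 2373 in LKO livers and 0 to 3 in Flox livers. With all 96 libraries these were 45 and 8, a pseudocount of 0.1 gave 1 in LKO livers, median-ratio scaling 1 in Flox livers, and the mean of both genotypes 6.

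With 2 libraries per genotype and time and unknown depth, values near 1 FPKM and changes within 4 h are limited by the number of libraries.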
